A study of Homo sapiens with 6 samples.

Results

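The transcripts described are those of 10 genes of colonocyte identity, measured in SW480, an established human cell line from a colon adenocarcinoma. The genes were taken by exact match of the gene symbol, and 10 of the 20289 genes in the deposited table matched. They are the surface proteins MUC1, CEACAM1, CEACAM5 and CEACAM6, the microvillar protein VIL1, and the transcription factors KLF4, KLF5, CDX1, CDX2 and HNF4A. Gene expression was measured by mRNA sequencing in 3 libraries of control cells, LV-NC, whose genotype is given as WT, and in 3 libraries of cells labelled as overexpressing the Flag-tagged microprotein MUCP1, MUCP1-FLAG. Both groups grew in L-15 medium supplemented with fetal bovine serum and antibiotics. The labels call the libraries biological replicates and name no clone, passage or day. The p-values below thus set group differences against the variation between these libraries, which was estimated in part across genes. The table has no row under the name MUCP1, so its level was not checked here. The comparison asks which genes differ between cells labelled MUCP1-FLAG and cells labelled LV-NC.

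Epithelial cells of the colon renew from stem cells at the base of the crypts and differentiate as they move up to the surface. CDX1 and CDX2, homeobox factors of the hindgut, and HNF4A, a nuclear receptor, drive the intestinal programme. KLF5 is a zinc finger factor of the dividing crypt cells and KLF4 a related factor of the differentiated cells above them. VIL1 encodes villin, which bundles actin in the microvilli of the brush border. MUC1 is a mucin that spans the apical membrane. CEACAM1 is an adhesion receptor with a transmembrane domain, whereas CEACAM5, the carcinoembryonic antigen, and CEACAM6 are held in the membrane by a lipid anchor.

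Sequences around the transcription start were available for 8 of the 10 genes, from RefSeq on GRCh38.p14. Each window spans 250 bases before and 50 bases after the start. Those of the 3 CEACAM genes are shown because these neighbours on chromosome 19 have similar sequence upstream and differ in whether reads were counted. MUC1 and KLF4 are shown because both were lower in MUCP1-FLAG and both hold repeated GC boxes. Capitals mark the letters CACCC (the CACC box) and GGGCGG (the GC box), which factors of the KLF and Sp families can bind, on either strand; in MUC1, 3 of the GC boxes overlap one another. The windows are chr19:42528432-42528731 (- strand), chr19:41708376-41708675 (+ strand), chr19:41755280-41755579 (+ strand), chr1:155192866-155193165 (- strand) and chr9:107489720-107490019 (- strand), each written 5′ to 3′ on the gene's strand.
CEACAM1: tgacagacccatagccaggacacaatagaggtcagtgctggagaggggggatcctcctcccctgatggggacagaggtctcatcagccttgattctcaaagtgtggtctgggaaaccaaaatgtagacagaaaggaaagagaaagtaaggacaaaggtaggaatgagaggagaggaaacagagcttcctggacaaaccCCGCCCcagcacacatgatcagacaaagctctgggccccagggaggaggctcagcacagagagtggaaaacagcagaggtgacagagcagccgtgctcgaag
CEACAM5: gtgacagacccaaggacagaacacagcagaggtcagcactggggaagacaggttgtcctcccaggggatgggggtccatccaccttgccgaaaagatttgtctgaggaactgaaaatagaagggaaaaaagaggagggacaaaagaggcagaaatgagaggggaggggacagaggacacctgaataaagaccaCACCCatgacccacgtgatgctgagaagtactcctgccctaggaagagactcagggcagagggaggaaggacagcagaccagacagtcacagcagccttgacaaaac
CEACAM6: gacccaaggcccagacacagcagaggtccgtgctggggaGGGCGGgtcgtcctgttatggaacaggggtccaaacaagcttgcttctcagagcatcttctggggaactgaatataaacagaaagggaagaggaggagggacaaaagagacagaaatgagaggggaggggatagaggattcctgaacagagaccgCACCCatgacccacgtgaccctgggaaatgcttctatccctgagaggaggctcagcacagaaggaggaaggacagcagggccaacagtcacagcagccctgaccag
MUC1: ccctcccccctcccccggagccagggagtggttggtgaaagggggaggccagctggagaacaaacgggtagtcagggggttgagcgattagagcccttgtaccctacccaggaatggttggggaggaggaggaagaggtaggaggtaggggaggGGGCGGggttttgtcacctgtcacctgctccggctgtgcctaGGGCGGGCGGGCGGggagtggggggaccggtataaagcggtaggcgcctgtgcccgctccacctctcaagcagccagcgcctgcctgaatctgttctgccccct
KLF4: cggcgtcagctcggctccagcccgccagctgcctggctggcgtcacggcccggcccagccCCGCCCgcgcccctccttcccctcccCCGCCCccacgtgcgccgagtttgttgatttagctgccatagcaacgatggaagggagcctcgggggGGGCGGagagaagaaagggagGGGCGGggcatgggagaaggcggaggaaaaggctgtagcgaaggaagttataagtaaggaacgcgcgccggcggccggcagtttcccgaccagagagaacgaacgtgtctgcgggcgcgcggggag

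Aligned end to end, with the first listed window of a gene that has several, those of CEACAM5 and CEACAM6 were 74.7% identical, those of CEACAM1 and CEACAM6 68.2%, and those of CEACAM1 and CEACAM5 65.6%. The other pairs of windows among the 8 genes were 38.6% to 48.2% identical. CEACAM5 and CEACAM6 each held 1 CACC box, which begins at 57 and 56 bases before the start, and the window of CEACAM1 held none. CEACAM1 and CEACAM6 held 1 GC box each, and MUC1 and KLF4 held 4 each. Of the genes not shown, KLF5, also lower in MUCP1-FLAG, had 1 window with 1 CACC box and 0 GC boxes. Its other window held 2 of each. The windows of HNF4A, which did not pass the test, held 2 and 4 CACC boxes and 1 GC box each. The window of CDX2, which did not pass either, held neither box. A link between these boxes and the differences was not tested. The CACC box was found at least once in 59.9% of the 35116 windows of the table and the GC box at least once in 45.0%. The share of windows with repeated GC boxes was not computed. Neither the letters TTTATG, a CDX motif present in 10.6% of windows, nor CAAAGTCC, an HNF4 motif present in 1.2%, occurred in a window of the 8 genes, searched on both strands.

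Libraries held 17333329 to 23282604 counts. No library stood apart: across genes, log2 CPM values (counts scaled to a common library size) had a Pearson's r of 0.991 to 0.993 for libraries of one group and 0.987 to 0.989 for libraries of different groups, with genes not being independent of one another. FPKM values, which scale counts for gene length and library size, allow genes to be set beside each other. Levels of the general epithelial genes differed widely. KRT8 stood at 1943 FPKM and EPCAM at 148 FPKM over the 6 libraries, whereas CDH1 stood at 5.27, CLDN3 at 3.58 and ELF3 at 1.42 FPKM. GRHL2 had no count in any library. Of 38 genes of the brush border and the absorptive colonocyte, 14 had enough counts to be tested, among them EZR at 257 FPKM, MYO1D at 129, BAIAP2L1 at 25.9 and PLS1 at 20.1 FPKM. The other 24 had too few counts to be tested, and 11 had no count in any library, among them CDH17, LGALS4, FABP1, SLC26A3 and GUCA2A. KRT20, a keratin of differentiated colonocytes, reached 3 counts at most in a library. Markers of blood cells and endothelium were low apart from EGFL7. The blood cell markers summed to 0.57 to 1.03 FPKM, with PTPRC at 0. The endothelial markers summed to 9.53 to 13.4 FPKM, nearly all of it EGFL7 (10.7 FPKM), with PECAM1, CDH5 and KDR at 0.

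The 10 genes fell into a set that was transcribed at a measurable level, with 7 members, and 3 that were not. KLF5 led the order with 58.7 FPKM over the 6 libraries, 8.21 times the level of KLF4 at 7.15 FPKM and 27.1 times that of MUC1. HNF4A followed with 4.88 FPKM, VIL1 with 4.23, CDX2 with 4.23, MUC1 with 2.17 and CEACAM1 with 1.98 FPKM. The 6 values of KLF5 lay above those of KLF4, and those of CDX2 above those of MUC1. Neighbours that overlapped in their 6 values were KLF4 and HNF4A, HNF4A and VIL1, VIL1 and CDX2, and MUC1 and CEACAM1. Apart from KLF5, which exceeded 88.8% of the 12920 tested genes, the measurable members lay under the median level of tested genes, 10.6 FPKM. KLF4 exceeded 39.8% of the tested genes, HNF4A 31.5% and CEACAM1 18.3%.

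**Figure D1:**
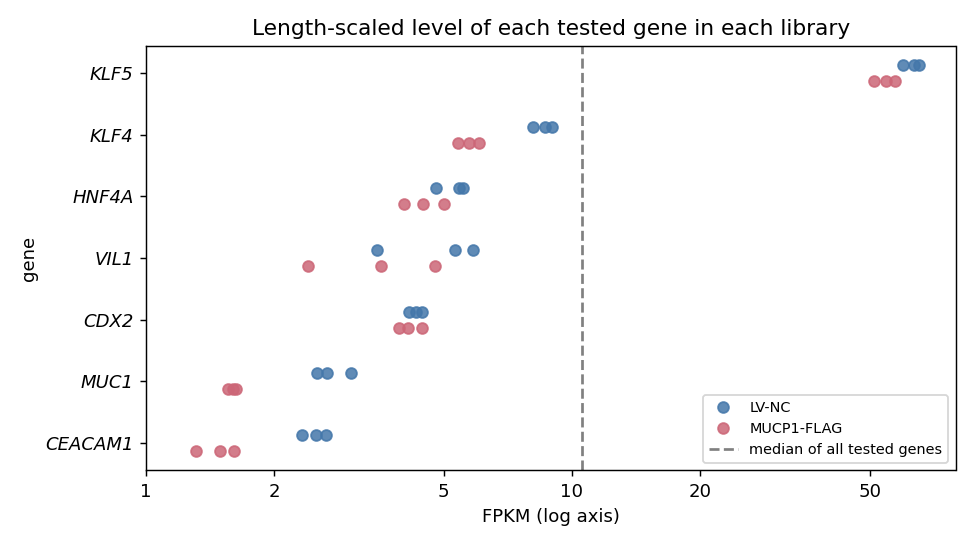
FPKM on a log axis for the 7 tested genes, with 1 dot per library and the 3 LV-NC libraries drawn above the 3 MUCP1-FLAG libraries of each gene. KLF5 lies at 51.1 to 65.4 FPKM, right of the dashed line at the median of all tested genes (10.6 FPKM), and the other genes lie left of it.

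CDX1, CEACAM5 and CEACAM6 had almost no reads. CDX1 (ENSG00000113722, GRCh38 chromosome 5, 150166795 to 150184558) had a count of 0 in each of the 6 libraries. CEACAM5 (ENSG00000105388, chromosome 19, 41708585 to 41729798) had 2 counts in MUCP1-FLAG replicate 1 and 0 in the other libraries, and CEACAM6 (ENSG00000086548, chromosome 19, 41750977 to 41772208) had 1 count in MUCP1-FLAG replicate 3 and 0 elsewhere. A count of 0 allows up to 3 counts, which is 0.131 to 0.174 CPM depending on the library, for counting error alone. Both groups were at or under that floor, so no fold is given for these genes. The authors' deposited table lists log2 fold changes of 5.54 for CEACAM5 and 2.74 for CEACAM6, with p-values of 0.576 and 0.811. It takes them from the ratio of mean FPKM values, with LV-NC entered as 0.001 FPKM for each gene. The longest CEACAM5 transcript of GENCODE 29 has 2825 stretches of 50 bases. Of these, 564 also occur in transcripts of other genes, AC243967.1 and CEACAM6 among them. AC243967.1 is annotated on the same strand and shares 544 exon bases with CEACAM5 itself. Even the 2 counts are thus uncertain in origin.

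Of the 7 members that could be tested, 5 were lower in MUCP1-FLAG and none was higher, by edgeR's quasi-likelihood test at an adjusted p under 0.05; the same 5 and 0 passed at an unadjusted p under 0.05. Over all 12920 tested genes 7.71% were called lower and 8.35% higher. The members and the gene lists below were chosen with earlier results of these data known. An excess over these shares is thus a description and not a test. The surface proteins MUC1 and CEACAM1 changed by the most, followed by KLF4, VIL1 and KLF5, whereas CDX2 and HNF4A did not pass the test. For each of the 5 called members the 3 CPM values of MUCP1-FLAG lay below the 3 of LV-NC, and over all tested genes this held for 16.4%. DESeq2 also called 5 members lower, beside 5.71% of the genes it tested, and limma on log2(FPKM + 1) called 3, beside 4.21%. MUC1 and CEACAM1 were also at least 1.5-fold lower, as were 1.87% of tested genes. The authors' deposited table likewise has 5 members at its own adjusted p under 0.05, with the most negative log2 fold change for MUC1, at −0.78. In bulk RNA, fewer cells that express a gene and less of its RNA per cell cannot be told apart.

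**Figure D2:**
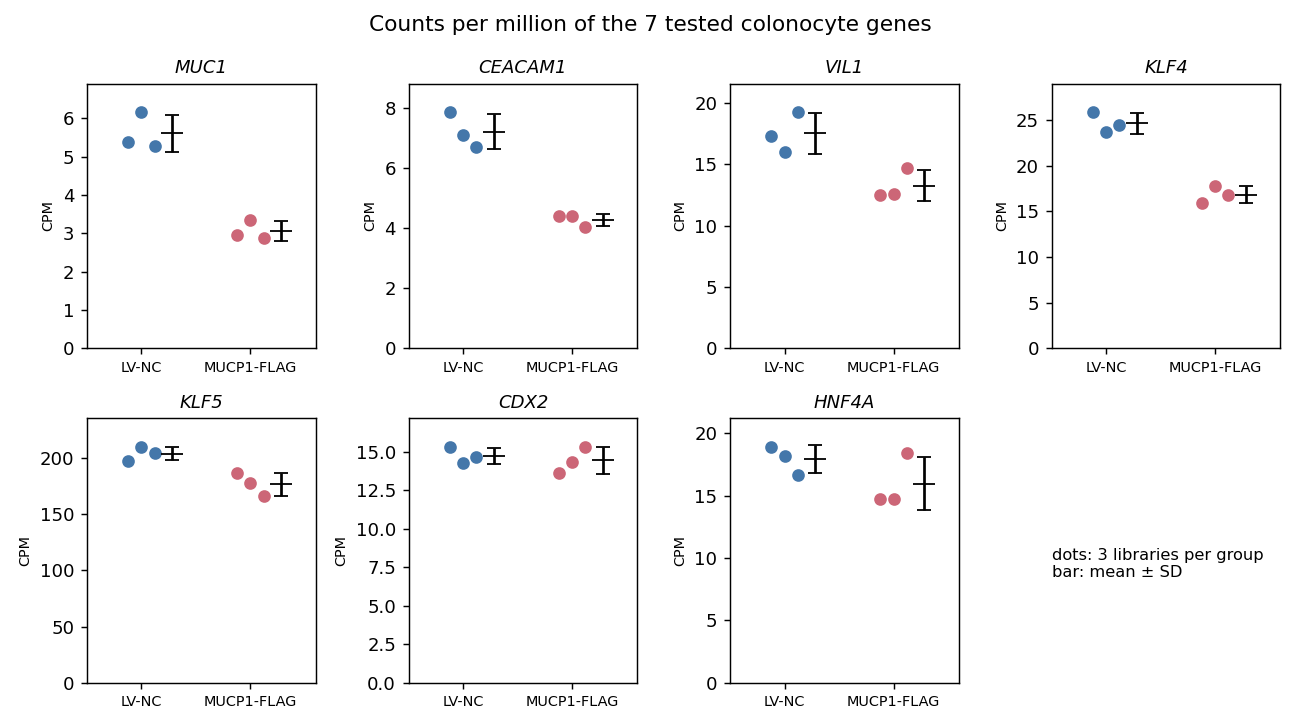
CPM of the 7 tested genes, with 1 dot per library and a bar for the mean ± SD of 3 libraries, each axis starting at 0. The groups do not overlap for MUC1, CEACAM1, VIL1, KLF4 and KLF5 and do overlap for CDX2 and HNF4A.

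MUC1 (ENSG00000185499, chromosome 1, 155185824 to 155192916, − strand) had 103, 133 and 101 counts in the LV-NC libraries, against 51, 77 and 56 in the MUCP1-FLAG libraries. Scaled for library size, the controls had 5.37, 6.17 and 5.29 CPM and the MUCP1-FLAG libraries 2.96, 3.35 and 2.87 CPM. Every MUCP1-FLAG library was thus well under the lowest LV-NC library. MUC1 fell from 5.61 ± 0.48 to 3.06 ± 0.26 CPM (mean ± SD of 3 libraries), which is 1.83-fold, or −0.87 ± 0.16 on a log2 scale, where the error of a fold change is its standard error (edgeR adjusted p 0.000626). The 95% interval of the log2 fold change ran from −1.20 to −0.54. MUC1 carries a tandem repeat in its extracellular part, and 8.48% of the 50-base stretches of its longest transcript occur in it more than once. Of the other membrane mucins tested, MUC3A was also called lower, with means of 1.41 CPM in the controls and 0.69 CPM with MUCP1-FLAG (−1.04 ± 0.31, log2 scale; adjusted p 0.027 in edgeR). MUC13, the mucin with the highest FPKM of this group, missed the threshold (−0.40 ± 0.14, edgeR adjusted p 0.0509). MUC16, a large mucin of other epithelia, had 0.37 ± 0.16 (edgeR adjusted p 0.132). Thus 2 of 6 tested membrane mucins were lower and none higher, and their median was −0.37 in log2, beside −0.0042 over all tested genes. Without MUC1, 1 of 5 was lower, beside 7.71% of all tested genes, and the median was −0.35. The call of MUC3A was lost on leaving out any one library except control replicate 3 (edgeR adjusted p 0.0593 to 0.130) and with DESeq2 (adjusted p 0.125). MUC13 was called lower with the replicate number as a block (edgeR adjusted p 0.0499), with either other filter on low counts (0.0322 and 0.0491) and without MUCP1-FLAG replicate 1 (0.0114). The number of lower membrane mucins was 3 with the block and 1 with DESeq2, with limma and without control replicate 2, MUCP1-FLAG replicate 2 or MUCP1-FLAG replicate 3.

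CEACAM1 (ENSG00000079385, chromosome 19, 42507304 to 42561234, − strand) had 151, 153 and 128 counts in the LV-NC libraries, against 76, 101 and 79 in the MUCP1-FLAG libraries. This gave 7.87, 7.09 and 6.70 CPM for the controls and 4.41, 4.40 and 4.05 CPM for MUCP1-FLAG. The MUCP1-FLAG libraries lay close together and below the control libraries. Its mean fell 1.68-fold, from 7.22 ± 0.60 to 4.29 ± 0.20 CPM (mean ± SD of 3 libraries; log2 fold change −0.75 ± 0.14, edgeR adjusted p 0.000645). The 95% interval was −1.04 to −0.46. Of the 50-base stretches of its longest transcript, 4.73% were shared with other genes, and its exons share 185 bases with LIPE-AS1, an antisense gene. The part of shared reads in the CEACAM1 counts was not tested. In the whole CEACAM family 3 of 12 genes were tested, and the 1 called lower was CEACAM1 itself. CEACAM21, at 18.9 FPKM the highest of the family, had a log2 fold change of 0.02 ± 0.08 and CEACAM19 of −0.39 ± 0.21 (edgeR adjusted p 0.897 and 0.220).

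VIL1 (ENSG00000127831, chromosome 2, 218419092 to 218453295, + strand) had 332, 345 and 368 counts in the LV-NC libraries, against 215, 289 and 287 in the MUCP1-FLAG libraries. In CPM it stood at 17.3, 16.0 and 19.3 in the controls, against 12.5, 12.6 and 14.7 with MUCP1-FLAG. The highest MUCP1-FLAG library lay just below the lowest LV-NC library. VIL1 fell 1.32-fold, from 17.5 ± 1.65 to 13.3 ± 1.27 CPM (mean ± SD of 3 libraries; log2 fold change −0.40 ± 0.10, edgeR adjusted p 0.00731). The deposited FPKM values overlapped between the groups, at 5.85, 5.30 and 3.49 FPKM in the controls against 3.57, 2.40 and 4.78 FPKM with MUCP1-FLAG. The length implied by count and FPKM was 2967 to 3474 bases in 4 libraries but 5589 bases in LV-NC replicate 3 and 5172 bases in MUCP1-FLAG replicate 2. With limma on log2(FPKM + 1) the difference of VIL1 was not called (−0.37, adjusted p 0.295), nor on log2(FPKM + 0.1) (−0.46, adjusted p 0.292).

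The annotation of VIL1 overlaps another gene. In GENCODE 29, 3045 of the 6920 exon bases of VIL1 also lie in exons of USP37, a deubiquitinase gene on the opposite strand, and no source used here states whether the counting used strand. USP37 stood at 39.4, 39.0 and 47.4 CPM in the control libraries, against 42.9, 41.4 and 39.3 CPM with MUCP1-FLAG. Its groups overlapped, and the difference was −0.02 ± 0.08 in log2 (edgeR adjusted p 0.865). The part of shared reads in the VIL1 counts was not tested.

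**Figure D3:**
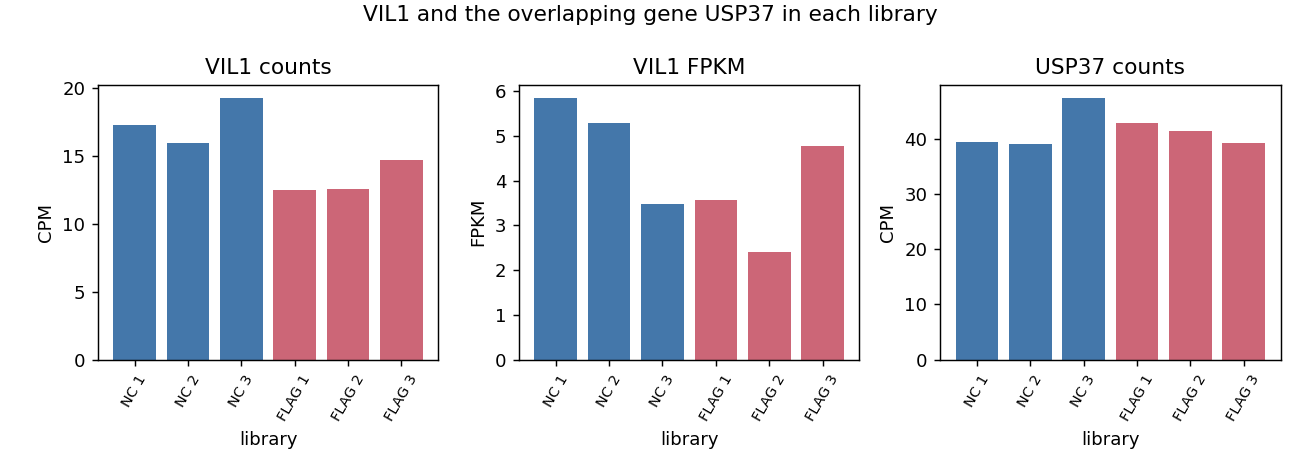
Bars give, for each of the 6 libraries, the CPM of VIL1, the deposited FPKM of VIL1 and the CPM of USP37, with LV-NC in blue and MUCP1-FLAG in red. The VIL1 counts separate the groups, whereas its FPKM ranges from 2.40 to 5.85 without separating them.

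Villin is one part of the brush border, and the other genes of that list were mixed. Of 14 tested genes of the brush border and the absorptive colonocyte 6 were lower and 1 higher, and the median was −0.15 in log2. Without VIL1, 5 of 13 were lower and 1 higher, with a median of −0.13. The shares over all tested genes were 7.71% lower and 8.35% higher. PLS1, which encodes another actin bundler of microvilli, had −0.25 ± 0.06 (edgeR adjusted p 0.00409) and ESPN, the actin bundler espin, −0.59 ± 0.16 (edgeR adjusted p 0.0152). The ESPN call was lost without control replicate 2 (edgeR adjusted p 0.0539) or either of MUCP1-FLAG replicates 1 and 2 (0.0626 and 0.0942), and with DESeq2 (adjusted p 0.0598). CA12, with 33 counts at most in a library, had −1.12 ± 0.30 (edgeR adjusted p 0.0120). TSPAN1 and BAIAP2L1 were also called lower, at −0.34 ± 0.10 and −0.20 ± 0.06 (edgeR adjusted p 0.018 and 0.017). The 1 gene called higher, the unconventional myosin gene MYO1D, rose by 0.32 ± 0.05 (edgeR adjusted p 3.91e-05). EZR, the microvillar linker ezrin and the member of this list with the highest FPKM, had 0.08 ± 0.04 (edgeR adjusted p 0.250). The list had 3 lower genes when replicate 1 or replicate 2 of MUCP1-FLAG was left out, and likewise with DESeq2.

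KLF4 (ENSG00000136826, chromosome 9, 107484852 to 107490482, − strand) had the smallest adjusted p of the members. It had 497, 511 and 467 counts in the LV-NC libraries, against 275, 409 and 328 in the MUCP1-FLAG libraries, which is 25.9, 23.7 and 24.5 CPM against 15.9, 17.8 and 16.8 CPM. The difference of the group means was several times the SD of either group. KLF4 fell 1.46-fold, from 24.7 ± 1.13 to 16.9 ± 0.93 CPM (mean ± SD of 3 libraries; log2 fold change −0.55 ± 0.08, edgeR adjusted p 7.09e-05). No 50-base stretch of its longest transcript occurs in transcripts of another gene.

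KLF5 (ENSG00000102554, chromosome 13, 73054976 to 73077542, + strand) had 198, 210 and 204 CPM in the LV-NC libraries, against 186, 178 and 166 CPM in the MUCP1-FLAG libraries. Its values, from 3213 to 4530 counts, are the most precise of the members, and its change was the smallest of the 5 called. KLF5 fell 1.15-fold, from 204 ± 6.18 to 177 ± 10.2 CPM (mean ± SD of 3 libraries; log2 fold change −0.21 ± 0.05, edgeR adjusted p 0.00651). The call did not hold without control replicate 2 (edgeR adjusted p 0.0593) or without MUCP1-FLAG replicate 3 (edgeR adjusted p 0.0842), and limma on log2(FPKM + 1) gave an adjusted p of 0.0517. The FPKM of KLF5 was 6.68, 8.10 and 7.34 times that of KLF4 in the LV-NC libraries and 10.6, 9.04 and 8.93 times in the MUCP1-FLAG libraries. The ratio of KLF5 to KLF4 was thus higher in each MUCP1-FLAG library than in any LV-NC library, as a description and without a test. It restates that KLF4 fell by more than KLF5.

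Of 14 tested KLF genes 5 were lower and none higher, and the median was −0.12 in log2. Of the 12 that are not described above 3 were lower, and their median was −0.09. Over all tested genes 7.71% were lower and 8.35% higher. KLF10, a factor induced by TGF-beta, had a log2 change of −0.25 ± 0.05 (edgeR adjusted p 0.00178). KLF6 and KLF13, with high FPKM in this family, had −0.15 ± 0.05 and −0.03 ± 0.05 (edgeR adjusted p 0.0319 and 0.696). The KLF6 call was lost on leaving out control replicate 2 or any MUCP1-FLAG library (edgeR adjusted p 0.0928 to 0.108) and with the replicate number as a block (0.0548). On leaving out single libraries the number of lower KLF genes was 2 for control replicate 2 and for MUCP1-FLAG replicate 3, and 3 for MUCP1-FLAG replicate 1 and for MUCP1-FLAG replicate 2, and it was 2 with limma on log2(FPKM + 1).

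CDX2 (ENSG00000165556, chromosome 13, 27962137 to 27971139, − strand) had 293, 308 and 280 counts in the LV-NC libraries, against 235, 330 and 299 in the MUCP1-FLAG libraries. Scaled, these were 15.3, 14.3 and 14.7 CPM against 13.6, 14.4 and 15.3 CPM, and the groups overlapped throughout. The difference was −0.03 ± 0.09 in log2 (edgeR adjusted p 0.878), and the 95% interval, −0.22 to 0.16, spans levels in MUCP1-FLAG of 86.1% to 112% of those in LV-NC. HNF4A (ENSG00000101076, chromosome 20, 44355700 to 44434596, + strand) had 363, 393 and 319 counts in the LV-NC libraries, against 254, 339 and 359 in the MUCP1-FLAG libraries. Its values were 18.9, 18.2 and 16.7 CPM against 14.7, 14.8 and 18.4 CPM. MUCP1-FLAG replicates 1 and 2 lay below the control libraries and replicate 3 among them. HNF4A differed by −0.17 ± 0.10 in log2 (edgeR adjusted p 0.264), with a 95% interval of −0.37 to 0.03. It was −0.29 without MUCP1-FLAG replicate 3 (edgeR adjusted p 0.0909) and −0.11 without MUCP1-FLAG replicate 2 (edgeR adjusted p 0.603). HNF4A transcripts start at separate promoters with windows in the RefSeq table at chr20:44355449-44355748 and chr20:44400989-44401288, and counts per gene do not part them.

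**Figure D4:**
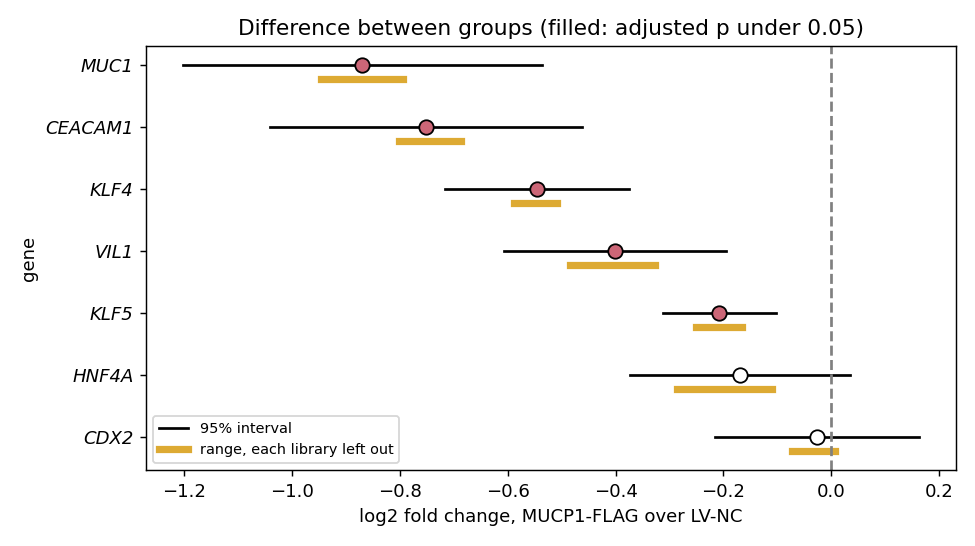
Log2 fold change of MUCP1-FLAG over LV-NC for the 7 tested genes, with the 95% interval in black and, in yellow, the range of the values when each library is left out in turn. Filled dots passed an edgeR adjusted p under 0.05; MUC1 is lowest at −0.87, and the intervals of HNF4A and CDX2 include 0.

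Of the 28 intestinal transcription factors listed, 19 were tested, 5 were lower and none was higher, and the median was −0.12 in log2. KLF4 and KLF5 are 2 of these 5. Without the members described above 3 of 15 were lower, beside 7.71% over all tested genes. PRDM1, a repressor of the fetal gut, had −0.47 ± 0.12 (edgeR adjusted p 0.00833), and ELF3, an epithelial ETS factor, −0.70 ± 0.19 (edgeR adjusted p 0.0139). SOX9, a factor of the crypt base, had a log2 fold change of −0.02 ± 0.05, and VDR, the vitamin D receptor, of 0.005 ± 0.05, with edgeR adjusted p-values of 0.845 and 0.967. GATA4 and ATOH1 had no count in any library, as had CDX1. Leaving out control replicate 2 gave 2 lower factors, and leaving out MUCP1-FLAG replicate 3 gave 1; limma on log2(FPKM + 1) gave 2. Without MUCP1-FLAG replicate 3 PRDM1 had an edgeR adjusted p of 0.0507 and ELF3 of 0.0851. PRDM1 had 0.0564 without control replicate 2, and ELF3 had 0.0641 without control replicate 1, by the same test. With limma on log2(FPKM + 1) ELF3 had −0.23 (adjusted p 0.232) and PRDM1 −0.35 (adjusted p 0.0738), and on log2(FPKM + 0.1) ELF3 had −0.36 (adjusted p 0.253).

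Most of the general epithelial genes tested were also lower. Of 11 tested epithelial genes 7 were lower and 1 higher, and the median was −0.46 in log2. For this list and those that follow, the shares over all tested genes were 7.71% lower and 8.35% higher. The tight junction gene CLDN7 fell by 1.18 ± 0.07 on the log2 scale, the E-cadherin gene CDH1 by 1.06 ± 0.08 and the splicing factor gene ESRP1 by 0.89 ± 0.07 (edgeR adjusted p 4.1e-11, 3.26e-09 and 9.21e-09). KRT8 and KRT18, which encode the simple epithelial keratins, did not pass the test, at 0.03 ± 0.05 and 0.12 ± 0.05 (edgeR adjusted p 0.735 and 0.0644). The 1 gene called higher was KRT19, another keratin of simple epithelia, at 0.17 ± 0.05 (edgeR adjusted p 0.0322), a call lost on leaving out any library but control replicate 1 (edgeR adjusted p 0.0533 to 0.189). KRT18 was called higher with the replicate number as a block (edgeR adjusted p 0.0469), without a filter on low counts (0.0401), without control replicate 1 (0.0130) and by DESeq2 (adjusted p 0.0251). Of the goblet cell genes 4 of 18 were tested and none was called by edgeR or DESeq2. At an unadjusted edgeR p under 0.05, 2 of them were lower, and limma on log2(FPKM + 1) called 1 lower, as did edgeR without control replicate 3 and without MUCP1-FLAG replicate 1. KLK1 and REP15, the goblet cell genes with the highest FPKM, stood at 6.89 and 1.48 FPKM over the 6 libraries. Their log2 fold changes were −0.33 ± 0.13 and 0.07 ± 0.26 (edgeR adjusted p 0.0965 and 0.893). MUC2, TFF3 and AGR2 had 7 counts at most in a library. Of the fibroblast markers ACTA2 rose by 0.53 ± 0.16 (edgeR adjusted p 0.0318), while COL1A2, COL3A1, DCN and FAP were at 0, and the 10 markers summed to 3.12 to 4.09 FPKM in LV-NC and 4.67 to 5.94 FPKM in MUCP1-FLAG. Their part in the values of the members was not tested. The ACTA2 call was lost on leaving out replicate 2 or 3 of either group (edgeR adjusted p 0.0595 to 0.165) and with DESeq2 (adjusted p 0.110). The crypt stem cell list had 1 gene higher, AXIN2 (0.27 ± 0.04, edgeR adjusted p 0.000219), and 1 lower, RNF43 (−0.18 ± 0.06, edgeR adjusted p 0.0455), of 6 tested, with LGR5 at 1 count at most. The RNF43 call was lost without control replicate 2 or any MUCP1-FLAG library (edgeR adjusted p 0.0730 to 0.203) and with DESeq2 (adjusted p 0.0938). In the enteroendocrine list 1 of 2 tested genes, CHGB, was lower (−0.37 ± 0.10, edgeR adjusted p 0.00998), a call lost on leaving out control replicate 2 (edgeR adjusted p 0.0628) or MUCP1-FLAG replicate 3 (0.0782). Of the blood cell and endothelial lists 1 and 2 genes were tested by edgeR, and none was called, adjusted or unadjusted, or by DESeq2 or limma.

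**Figure D5:**
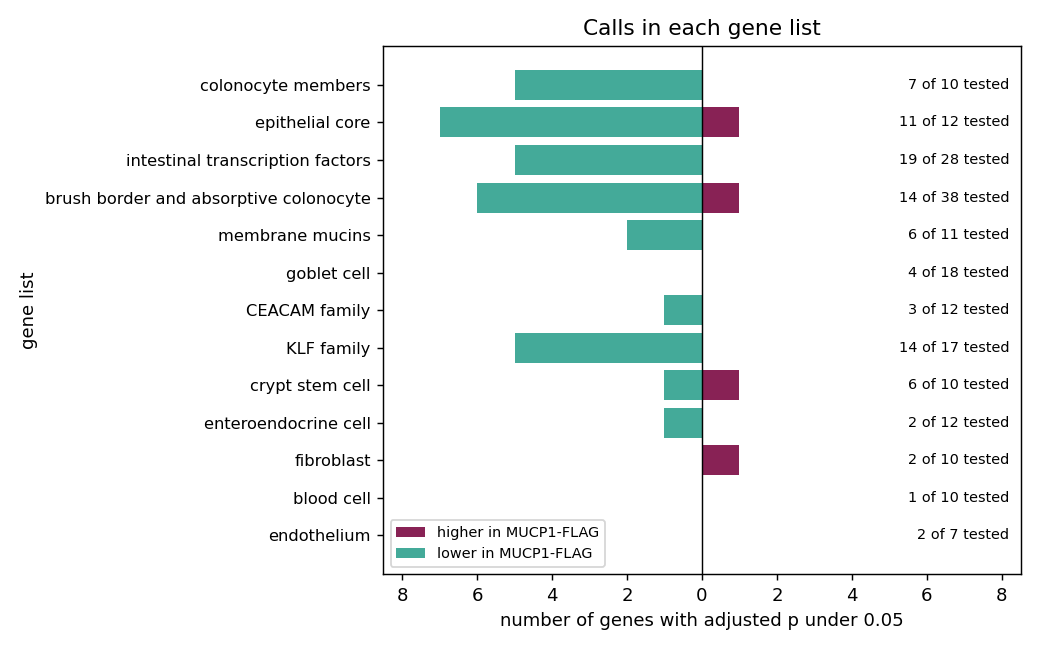
Number of genes with an edgeR adjusted p under 0.05 in the 10 colonocyte genes and in each of 12 gene lists, with lower genes drawn to the left and higher genes to the right; the lists share some genes. The epithelial core list has 7 genes lower and 1 higher, and the goblet cell, blood cell and endothelium lists have none of either.

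The genes whose pattern over the 6 libraries was most like that of each called member were found by the mean absolute difference of log2 CPM centred on each gene's mean. For MUC1 they were DHRS2, a dehydrogenase gene, ADIRF and the serine protease gene PRSS22, with differences of 0.05, 0.06 and 0.07. For CEACAM1 the nearest were HBEGF, a ligand of the EGF receptor, at 0.04, ACRBP at 0.04 and CSF2, which encodes GM-CSF, at 0.04. The nearest genes to KLF4 were SLC24A1, EEF1A2 and STING1, at 0.03, 0.04 and 0.04, those to VIL1 ACVR2B, LRRC8B and RIN1, at 0.05 each, and those to KLF5 LPCAT3, CTNNBIP1 and CHMP4C, at 0.01, 0.02 and 0.02. Because the measure includes the difference between the groups, the genes near a member that differed had a similar fold change, for example −0.81 ± 0.06 for DHRS2 and −0.76 ± 0.07 for HBEGF.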

How the data were processed

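The authors deposited, per gene, whole-number counts and FPKM for 3 LV-NC and 3 MUCP1-FLAG libraries. The authors' deposited table also gives mean FPKM, a log2 fold change and p-values, whose test no source used here states. Tools in the submitters' processing notes are fastp, HISAT2, featureCounts and DESeq2, with GRCh38 as the build; the strand setting and the length behind FPKM are not given. FPKM and counts did not always match in length.

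Counts were tested with edgeR 4.0.16 in R 4.3.3 (TMM scaling, filterByExpr with a minimum count of 10, robust quasi-likelihood F test, Benjamini-Hochberg adjustment over 12920 genes, threshold 0.05). The code was also run on simulated counts that gave every gene the same dispersion. That run is not used as support for the calls. Standard errors and 95% intervals were derived from the F statistic. CPM used TMM factors. Libraries of one group were not duplicates (chi-square per degree of freedom 2.57 to 8.26). Alternatives were RLE scaling, DESeq2 1.42.0, other filters, limma 3.58.1 on log2(FPKM + 1) and log2(FPKM + 0.1), the replicate number as a block, and each library left out.

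The members and lists were chosen with earlier results of these data known. Named were the members, called list genes with the 4 smallest adjusted p-values or, from lists without calls, up to 2 genes of highest FPKM, and the 3 genes nearest each called member; list genes of high or no expression were named for their level, and not each gene under the rule is printed. MUC13, MUC16, CEACAM19, CEACAM21, ESPN, EZR, TSPAN1, KLF6, KLF13, SOX9, VDR, KRT8, KRT18, KRT19 and the fold change of BAIAP2L1 were added after their values were seen. Positions and overlaps are from GENCODE 29 and promoter windows from RefSeq (GRCh38.p14), aligned with biopython 1.88.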

Additional observations from a re-analysis of the deposited data

How the results depend on the processing

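MUC1, CEACAM1 and KLF4 were called lower under each alternative run. The log2 fold change ranged from −0.95 to −0.79 for MUC1, −0.80 to −0.69 for CEACAM1 and −0.59 to −0.51 for KLF4 when each library was left out, and from −0.0729 to 0.0063 for CDX2. On the log2(FPKM + 1) scale MUC1 had −0.52 and CEACAM1 −0.50, against −0.87 and −0.75 from counts. The number of members called lower was 3 with limma on log2(FPKM + 1), where VIL1 and KLF5 were lost, and lay between 4 and 5 with each library left out. The log2 fold change of CDX2 changed sign, to 0.0063, without MUCP1-FLAG replicate 1 (adjusted p 0.980). No member was called higher by any tool run. Of all genes, 514 were higher and 544 lower with limma on log2(FPKM + 1), 516 and 549 on log2(FPKM + 0.1), against 1079 and 996 in edgeR; without single libraries the counts ran from 639 to 1323 higher and from 624 to 1213 lower. Whether the replicate numbers in the labels pair the samples was not settled. The deviations of same-numbered libraries correlated at 0.00 to 0.05 and those of differently numbered libraries at −0.05 to 0.01. LV-NC replicates 1 and 2 correlated best with their own number. LV-NC replicate 3 had 0.0024 with its own number and 0.0045 with MUCP1-FLAG replicate 2, values too close to tell apart. With the replicate block, 1005 genes were higher and 954 lower, and the same 5 members were lower. Depth limits CDX1, CEACAM5 and CEACAM6, for which both groups lay at or under the 3 counts that a count of 0 allows, so no difference could be measured.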
